A study of Drosophila melanogaster with 36 samples.

Results

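Eye pigment genes of Drosophila melanogaster were followed across adult flies of 3 strains. They were chosen by name: of 10 listed genes of pigment synthesis and transport (w, st, bw, cn, v, se, ry, Pu, Hn and Dhpr), 6 had an array element under a current or older symbol, namely st, cn, Pu, se, ry and Dhpr. Pu had 2 elements, so 7 elements stood for the 6 genes, of 14866 elements and 10428 genes tested in all. The genes w, bw, v and Hn were not analysed here. All 7 elements had a value on each of the 36 arrays.

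The colour of the fly eye comes from brown ommochromes, made from tryptophan through kynurenine, and from red drosopterins and other pteridines, made from GTP. Both are stored in pigment granules, and ABC transporters of the granule membrane carry their precursors inward. Several of these genes also act outside the eye, since Malpighian tubules store kynurenine pathway products, and tetrahydrobiopterin, made by the same route as the red pigments, serves as a cofactor of enzymes that hydroxylate aromatic amino acids.

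The tested strains were Antennapedia[73b] and apterous[56f], each carrying an allele of the homeotic gene or wing selector gene in its name, and Oregon[R] was the wild type. RNA came from whole adults bought from a supplier, with no sex, age or number of flies given, so fewer cells of a type and less RNA per cell, or another share of the sexes, cannot be told apart. Each array compared a Cy3-labelled sample (channel 1) with a Cy5-labelled one (channel 2), and each of the 9 ordered pairs of strains had 4 arrays. There were thus 24 arrays of 2 strains and 12 on which a strain met itself.

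Each value is a ratio between the channels of an array, with no level of its own, and it is given here as a log2 ratio centred on the array's median. Which of the channels a positive ratio stands for is not stated. Read as channel 1 over channel 2, a plus difference is one where the first-named strain had more transcript, and a minus difference one where it had less. Read the other way, every sign turns. The number of RNA extractions behind the arrays is not given, so the p-values measure only how far arrays differ among themselves, and that spread may be technical.

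In Antennapedia[73b] flies set against Oregon[R] flies, the elements of ry and Dhpr differed, both on the plus side, and those of st, cn, se and Pu did not pass the test. The test was limma's moderated test with a term for each strain and a dye term over all 36 arrays, with Benjamini-Hochberg adjustment over all 14866 elements at a threshold of 0.05. An element past it is named called. Of the 7 elements 2 were called, and 22.0% of all elements tested were called in this comparison (11.9% plus and 10.1% minus). The share among pigment genes was thus near the background. No element of the 7 was called in apterous[56f] against Oregon[R], where 15.7% of all elements were (6.94% plus and 8.76% minus), or in Antennapedia[73b] against apterous[56f], where 15.4% were (10.2% plus and 5.19% minus). The first and the third comparison share the Antennapedia[73b] samples, and each pair of comparisons has a strain in common.

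ry encodes xanthine dehydrogenase, which turns hypoxanthine into urate and makes isoxanthopterin from pterin. Its log2 ratio was 0.24, 0.19, 0.00 and 0.26 on the 4 arrays with Antennapedia[73b] in channel 1 and Oregon[R] in channel 2. With the strains in the opposite channels it was -0.38, -0.31, -0.63 and -0.31. The 2 orientations did not overlap, and turned to the same strain order 7 of the 8 arrays were plus, 0 minus and 1 at 0. Orientations that did not overlap were seen for 16.6% of elements with all 8 values. On the 12 self-hybridised arrays ry ran from -0.33 to 0.14, and 5 of the 8 direct arrays lay outside that range.

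The mean of the 8 direct arrays, turned to Antennapedia[73b] against Oregon[R], was 0.29 ± 0.18 for ry (SD, n = 8). Over all 36 arrays the fit gave 0.23 (SE 0.0512, 95% interval 0.13 to 0.33, limma adjusted p = 0.000447). That size was at the 89.2 percentile among all elements tested, and amounts to a 1.17-fold ratio. Within the lower- and higher-numbered 2 arrays of each group the difference for ry was 0.20 (limma adjusted p = 0.0134) and 0.26 (adjusted p = 0.0348). It was 0.20 on odd-numbered arrays alone, where it missed the threshold (adjusted p = 0.0611), and 0.27 on even-numbered ones (adjusted p = 0.0163).

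In the other comparisons ry lay on the same side without passing the test. With apterous[56f] in channel 1 against Oregon[R] the arrays gave 0.00, 0.06, -0.37 and -0.27, and with the channels exchanged -0.07, -0.07, -0.45 and -0.29, so the orientations overlapped. The fitted difference of apterous[56f] against Oregon[R] was 0.10 (95% interval -0.01 to 0.20, limma adjusted p = 0.214). Antennapedia[73b] in channel 1 against apterous[56f] gave 0.00, -0.20, -0.14 and 0.14 for ry, and apterous[56f] in channel 1 gave -0.26, 0.06, -0.43 and -0.20. Here the difference was 0.14 (interval 0.03 to 0.24) with limma adjusted p = 0.0624. It passed the threshold under 5 of 55 alternatives. Among these were the place of the arrays (lower- or higher-numbered 2 of a group) as a block (adjusted p = 0.0443) and leaving out array 56, 59 or 71 (0.0402, 0.0366 and 0.0220). The difference was 0.08 on the direct arrays only (adjusted p = 0.566) and 0.08 within the lower-numbered 2 arrays of each group (adjusted p = 0.466). The order of the strains for ry was thus Antennapedia[73b], apterous[56f], Oregon[R] from the plus end to the minus end, and only the ends of that order differed by the test.

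Dhpr encodes dihydropteridine reductase, which returns quinonoid dihydrobiopterin to tetrahydrobiopterin. With Antennapedia[73b] in channel 1 and Oregon[R] in channel 2 the log2 ratio was 0.32, 0.41, -0.16 and 0.38, and with the opposite channels it was 0.00, -0.20, -0.06 and -0.17. The orientations overlapped because of the array at -0.16, array 64, and 6 of 8 arrays were plus, 1 minus and 1 at 0. The turned mean was 0.17 ± 0.20 (SD, n = 8), and the fit gave 0.18 (SE 0.0484, interval 0.08 to 0.28, limma adjusted p = 0.00428), or a 1.13-fold ratio at the 82.8 percentile of size. Without array 64 the difference for Dhpr was 0.22 (adjusted p = 0.000421).

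More settings removed the call of Dhpr than that of ry. Within the lower- and higher-numbered 2 arrays of each group the Dhpr difference was 0.23 (limma adjusted p = 0.00203) and 0.13 (0.394), and on odd- and even-numbered arrays it was 0.24 (0.0134) and 0.12 (0.363). It missed the threshold when only the 8 arrays that hold both strains were fitted, where it was 0.17 (adjusted p = 0.132). The 2 spots of the Dhpr element differed, with 0.08 at the first spot (adjusted p = 0.493) and 0.28 at the second (adjusted p = 7.29e-05).

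For apterous[56f] in channel 1 against Oregon[R] the 4 arrays gave Dhpr at 0.26, 0.07, 0.07 and 0.34, and for Oregon[R] in channel 1 at -0.07, 0.00, 0.06 and 0.00. All 4 arrays of the first orientation were above the 4 of the second, as for 11.5% of elements with all values. The fitted difference was 0.09 (interval -0.01 to 0.18) with limma adjusted p = 0.234. With Antennapedia[73b] in channel 1 against apterous[56f] Dhpr lay at 0.20, 0.20, 0.14 and 0.19, and with apterous[56f] in channel 1 at -0.14, 0.00, -0.13 and 0.20. The orientations overlapped because of array 73 at 0.20, and the difference of 0.09 (interval -0.0046 to 0.19) had an adjusted p of 0.213. Strains stood in the same order for Dhpr as for ry, and neighbours in it did not differ by the test.

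**Figure D1:**
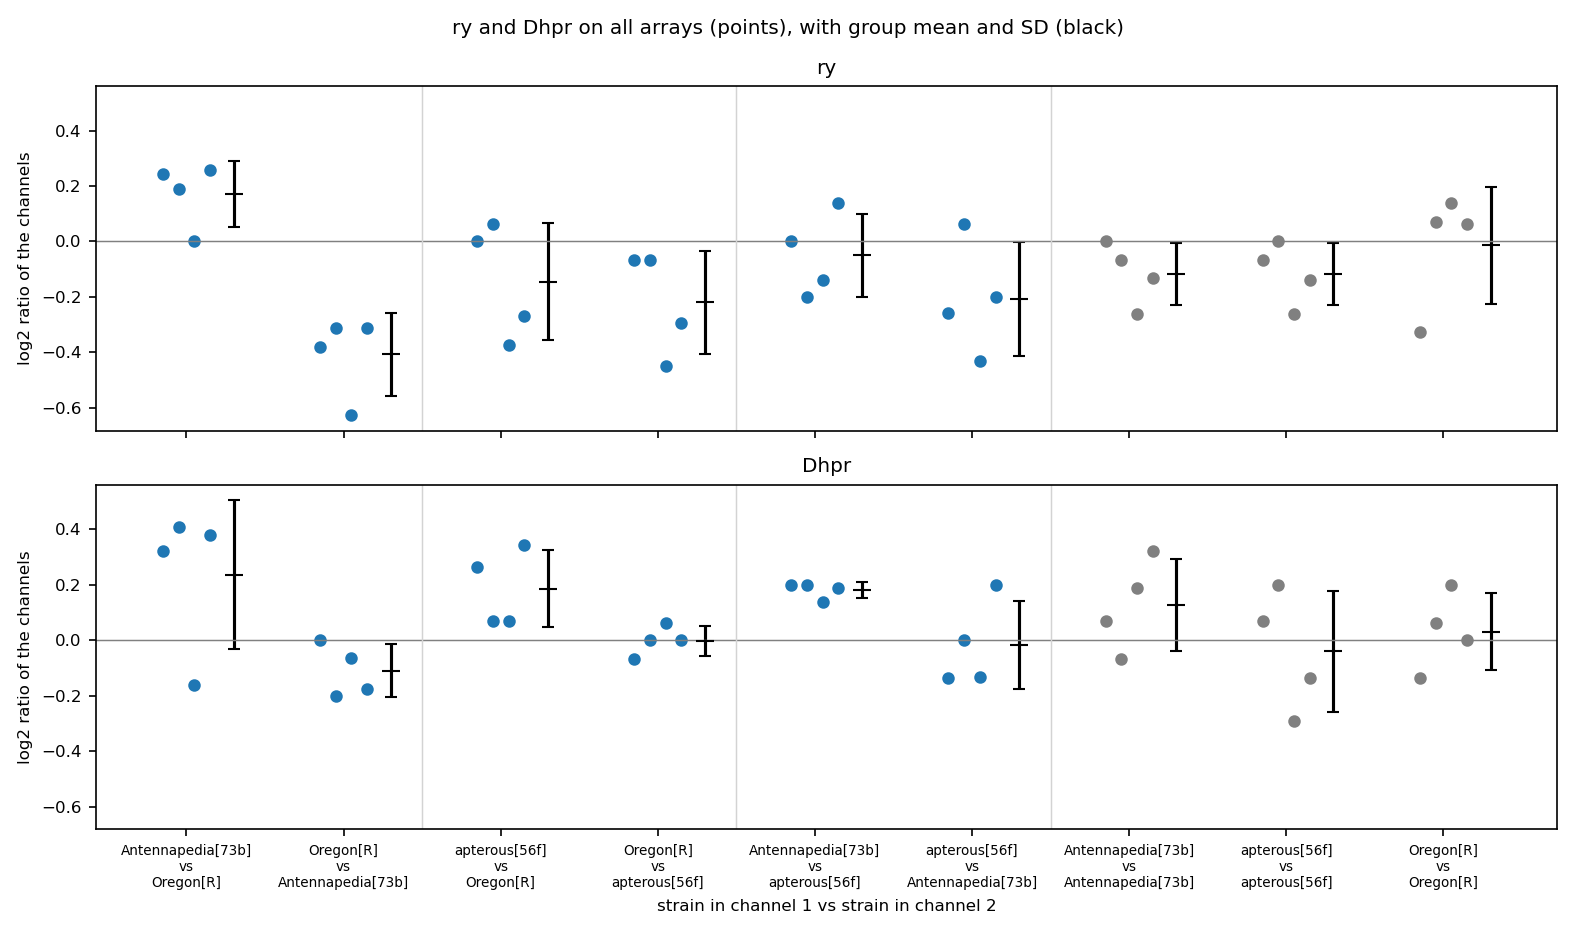
Log2 ratio between the channels (vertical axis) for ry (upper panel) and Dhpr (lower panel) on each of the 36 arrays, by the strain in channel 1 against the strain in channel 2 (horizontal axis); points are arrays, blue for 2 strains and grey for a strain against itself, and black bars are the group mean ± SD of 4 arrays. The 4 ry points of Antennapedia[73b] against Oregon[R] lie between 0.00 and 0.26, and those with the channels exchanged between -0.63 and -0.31.

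Pu encodes GTP cyclohydrolase, the first enzyme of the pteridine route, and its 2 elements did not give the same pattern. For element 1 the log2 ratio was 0.13, -0.07, 0.17 and -0.31 with Antennapedia[73b] in channel 1 against Oregon[R], and 0.06, -0.20, -0.38 and -0.06 with Oregon[R] in channel 1. Pu element 2 gave 0.19, 0.07, -0.13 and -0.07 in the first orientation, and 0.34, 0.07, 0.12 and -0.06 in the second. Orientations overlapped for both elements. The fitted differences were 0.10 for element 1 (limma adjusted p = 0.278) and -0.05 for element 2 (adjusted p = 0.559), with intervals of -0.03 to 0.22 and -0.16 to 0.06.

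Between Antennapedia[73b] and apterous[56f], Pu element 1 was -0.12, 0.00, 0.06 and 0.14 with Antennapedia[73b] in channel 1, and -0.20, -0.13, -0.85 and -0.35 with apterous[56f] in channel 1. The orientations met without overlapping, and the turned mean was 0.20 ± 0.30 (SD, n = 8), with 6 arrays plus, 1 minus and 1 at 0. Orientations without overlap were seen for 12.9% of elements in this comparison. The fit gave 0.17 (interval 0.04 to 0.29) with limma adjusted p = 0.0633. That p fell below the threshold under 7 of 55 alternatives, among them the place of the arrays as a block (0.0411) and leaving out array 50, 56, 65, 66 or 67 (0.0349 to 0.0490). Without array 72, which held the value of -0.85, the difference was 0.11 (adjusted p = 0.2365). Within the lower-numbered 2 arrays of each group it was 0.04 (adjusted p = 0.741). Pu element 2 had a difference of -0.02 (adjusted p = 0.845) in the same comparison, so the gene had no common direction over its elements. The transcripts that each element detects are not given.

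se encodes an omega-class glutathione S-transferase that makes pyrimidodiazepine, a precursor of the red drosopterins. Its values were 0.07, 0.00, 0.00 and -0.42 with Antennapedia[73b] in channel 1 against Oregon[R], and 0.06, -0.13, -0.07 and -0.17 with the channels exchanged. With apterous[56f] in channel 1 against Oregon[R] they were 0.00, 0.07, -0.26 and -0.33, and with Oregon[R] in channel 1 0.07, 0.00, -0.14 and -0.37. The se ratio thus fell in the same range whichever strain was in channel 1. The differences were -0.0031 for Antennapedia[73b] against Oregon[R] (limma adjusted p = 0.982), -0.01 for apterous[56f] against Oregon[R] (0.911) and 0.01 for Antennapedia[73b] against apterous[56f] (0.940). The intervals for se bounded the ratio between any pair of strains to at most 1.08-fold, the narrowest bound of the 7 elements.

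The se values differed with the place of an array in its group by array number. On self-hybridised arrays, which carry no strain difference, the means were -0.27 for the Oregon[R] group, -0.05 for apterous[56f] and 0.00 for Antennapedia[73b]. These groups also differ in array number, and no test was made of this. Over the 9 groups the mean was 0.02, -0.04 and -0.10 at the 3 lower-numbered places and -0.29 ± 0.13 at the highest (SD, n = 9 at each place). On 8 of the 9 groups the highest-numbered array was the lowest, which 0.227% of elements with all values showed. ry was lowest on the array with the third number in 7 of 9 groups, with a mean there of -0.27 ± 0.24 (SD, n = 9), which 1.42% of elements showed. The medians over all elements at the 4 places lay between -0.03 and 0.01. Both counts were looked at after the values had been seen, and the labels do not say what the array number stands for. Every place occurs in every group, so a block for place cannot move a member's difference and changes only its SE. With a block of 4 levels ry in Antennapedia[73b] against Oregon[R] stayed at 0.23 (SE 0.0467 in place of 0.0512), and no difference of se was called. Whether the array-number pattern bears on ry was thus not tested by the block.

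**Figure D2:**
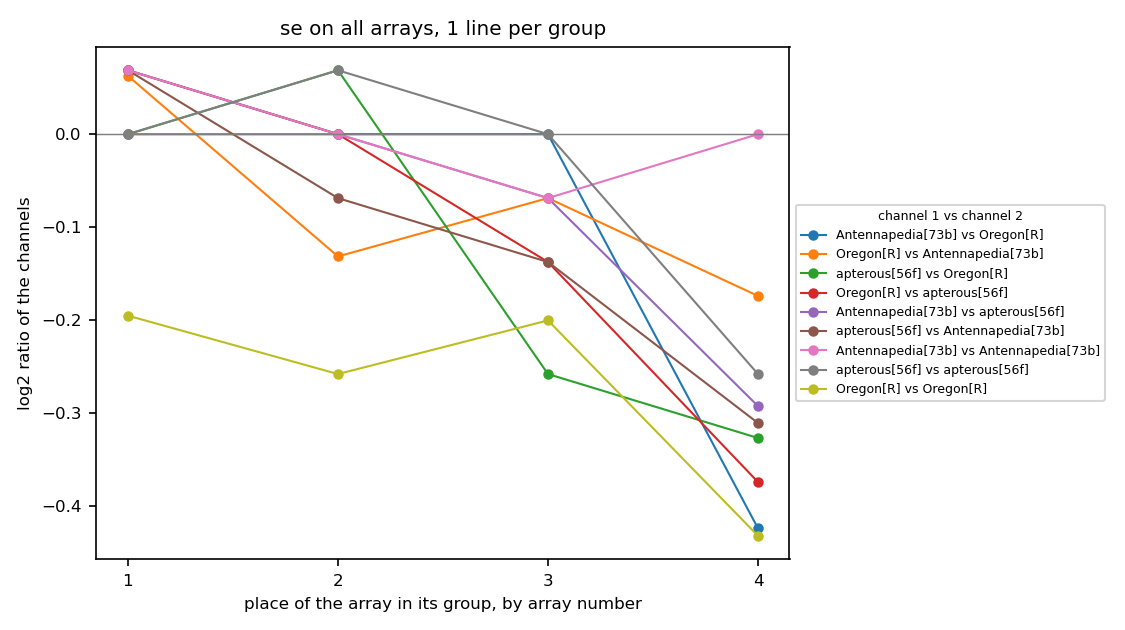
Log2 ratio of se (vertical axis) by the place of an array in its group, ordered by array number (horizontal axis), with 1 line for each of the 9 groups named by channel 1 against channel 2. At the highest place the values average -0.29, and in 8 of 9 groups that point is the lowest of its line.

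cn encodes kynurenine 3-monooxygenase, which makes the 3-hydroxykynurenine that condenses into ommochromes. Its ratio was below 0 on most arrays whatever the strains: it was 0.07, -0.07, -0.14 and -0.29 with Antennapedia[73b] in channel 1 against Oregon[R], and -0.21, 0.00, -0.32 and -0.37 with Oregon[R] in channel 1. The dye intercept of the fit, the part of the ratio common to all arrays, was -0.21 for cn (SE 0.0342, limma adjusted p = 1.17e-06). It was called for 5 of the 7 elements (cn, se, ry, Pu element 1 and Dhpr), and for 61.2% of all elements. Strain differences of cn were 0.0043 for Antennapedia[73b] against Oregon[R] (interval -0.11 to 0.12, adjusted p = 0.979), -0.06 for apterous[56f] against Oregon[R] (0.520) and 0.07 for Antennapedia[73b] against apterous[56f] (0.505).

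st encodes the ABC transporter that pairs with the product of w to load ommochrome precursors into granules. It gave -0.19, 0.26, 0.26 and 0.22 with Antennapedia[73b] in channel 1 against Oregon[R], and 0.06, 0.19, 0.14 and -0.07 with Oregon[R] in channel 1. Its widest spread was in the groups with apterous[56f] in channel 1 and another strain in channel 2, each with a low highest-numbered array. There st was 0.00, -0.06, 0.20 and -0.88 against Oregon[R] and 0.31, 0.13, -0.06 and -0.73 against Antennapedia[73b]. With apterous[56f] in channel 2 it was -0.13, -0.29, -0.72 and -0.42 where Oregon[R] was in channel 1, and 0.13, 0.19, 0.00 and 0.07 where Antennapedia[73b] was. The spread was narrow in the last of these groups (SD 0.08) and with apterous[56f] against itself (SD 0.11).

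The fitted differences of st were 0.08 for Antennapedia[73b] against Oregon[R] (limma adjusted p = 0.485), 0.05 for apterous[56f] against Oregon[R] (0.726) and 0.04 for Antennapedia[73b] against apterous[56f] (0.816). The SE of 0.0772 was the largest among the 7 elements, against a median of 0.058 over all elements. In Antennapedia[73b] against Oregon[R] the st interval ran from -0.07 to 0.24, which allows a ratio of up to 1.18-fold. Across the 7 elements and 3 comparisons the intervals bounded every uncalled difference to between 1.07-fold and 1.22-fold.

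**Figure D3:**
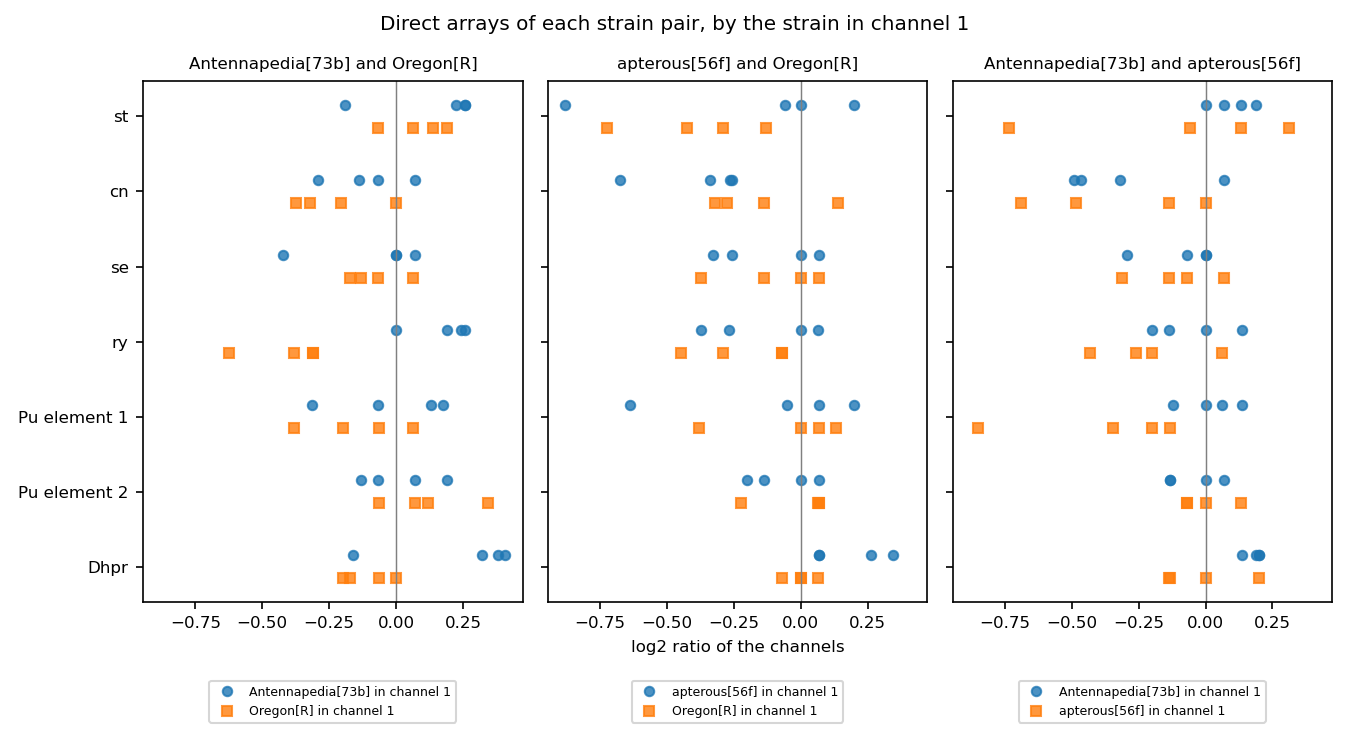
Log2 ratio between the channels (horizontal axis) on the direct arrays of each pair of strains (panels) for the 7 elements (rows); blue circles are arrays with the first-named strain of the panel in channel 1 and orange squares arrays with the other strain there. In each comparison 1 of the 7 elements has orientations that do not overlap: ry in Antennapedia[73b] against Oregon[R], Dhpr in apterous[56f] against Oregon[R], and Pu element 1 in Antennapedia[73b] against apterous[56f]. Over all elements with a value on each direct array the shares were 16.6%, 11.5% and 12.9%, so 1 of 7 is near the background.

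Set beside all elements, the 7 together did not stand off far. Their median difference was 0.08 in Antennapedia[73b] against Oregon[R], (5 plus, 2 minus), and the median of all elements was 0.01. The median was -0.01 in apterous[56f] against Oregon[R] (3 plus, 4 minus), against -0.02 over all elements. It was 0.07 in Antennapedia[73b] against apterous[56f] (6 plus, 1 minus), against 0.02 over all elements. At an unadjusted limma p under 0.05 the members counted 2, 0 and 2 (ry and Dhpr, none, and ry with Pu element 1), where all elements counted 4811, 4227 and 3974. Around the triangle of strains the direct difference minus the one through the other 2 pairs was called for 0 of 7 members and 0 of 14866 elements (lowest unadjusted p among members 0.110, adjusted p = 1.000).

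**Figure D4:**
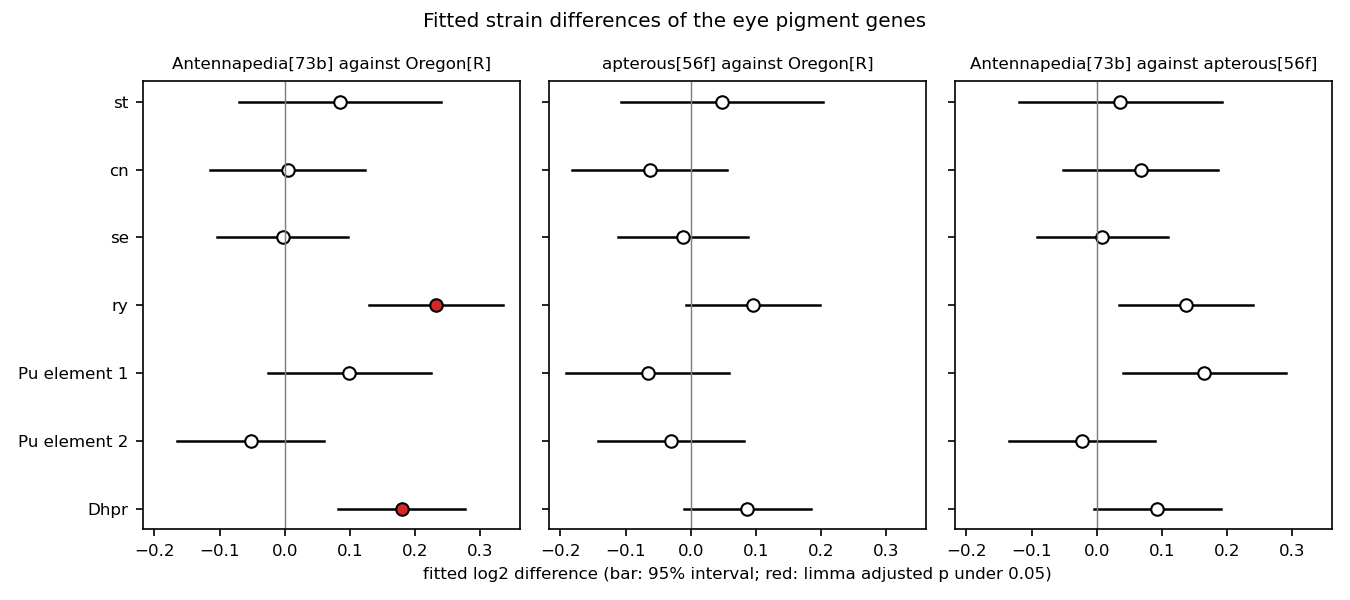
Fitted log2 difference (horizontal axis) of the 7 elements (rows) in the 3 comparisons (panels), with 95% intervals from the fit over 36 arrays; red points were called and open points were not. Only ry at 0.23 and Dhpr at 0.18 in Antennapedia[73b] against Oregon[R] were called, and their intervals stay above 0.

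Other genes of the same pathways were grouped in lists. In the ommochrome list (5 of 5 genes tested, 7 elements) 2 elements of Kyat, a kynurenine aminotransferase that draws kynurenine away from the pigment, were on the minus side in Antennapedia[73b] against Oregon[R]. They stood at -0.16 each (limma adjusted p = 0.0110 and 0.0250), and 0 of the 7 were called on the plus side. A further Kyat element was not called, at -0.11 (0.182). None of the 7 was called in the other comparisons, with medians of 0.00 and -0.03.

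The pteridine list (13 of 16 genes tested, 14 elements) held called elements on both sides: 2 plus and 2 minus in Antennapedia[73b] against Oregon[R], 0 and 2 in apterous[56f] against Oregon[R], and 5 and 3 in Antennapedia[73b] against apterous[56f]. GstO1, an omega-class glutathione S-transferase like se, was at -0.40 in Antennapedia[73b] against Oregon[R] (limma adjusted p = 3.09e-07) and at -0.37 in Antennapedia[73b] against apterous[56f] (2.37e-06). GstO2 and GstO3 of the same class were at 0.28 and 0.26 in Antennapedia[73b] against apterous[56f] (7.67e-05 and 0.000246), and on the minus side in apterous[56f] against Oregon[R] at -0.16 and -0.17 (0.0367 and 0.0232). A further GstO2 element was not called in apterous[56f] against Oregon[R], at -0.06 (0.516), and was called in Antennapedia[73b] against apterous[56f], at 0.19 (0.0125). se itself lay between -0.01 and 0.01 in all 3 comparisons.

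The aldehyde oxidase genes AOX1 and AOX3, whose proteins belong to the same family as xanthine dehydrogenase, were both called on the plus side with ry in Antennapedia[73b] against Oregon[R]. AOX1 was at 0.26 (limma adjusted p = 6.94e-05) and AOX3 at 0.26 (3.05e-05). Both were also called in Antennapedia[73b] against apterous[56f], AOX1 at 0.24 (0.000432) and AOX3 at 0.24 (0.000214). AOX2, at 0.07 (0.358) and 0.09 (0.227), and AOX4, at 0.22 (0.0604) and 0.16 (0.245), were called in neither comparison. DhpD, the dihydropterin deaminase, was at -0.17 in Antennapedia[73b] against Oregon[R] (0.0250) and at -0.26 in Antennapedia[73b] against apterous[56f] (0.000496). Sptr was also called minus in Antennapedia[73b] against apterous[56f], at -0.20 (0.00705), and was not called in Antennapedia[73b] against Oregon[R], at -0.09 (0.282). Probe sequences were not used here, so signal shared between ry and the AOX genes, between se and the GstO genes, or between Prat and Prat2, could not be told apart from separate transcripts.

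Genes of purine synthesis, which feeds GTP to the pteridine route and whose products are broken down to the hypoxanthine that xanthine dehydrogenase uses, were 9 of 9 tested on 11 elements. In Antennapedia[73b] against Oregon[R] 3 were called plus and 1 minus: Paics at 0.37 (limma adjusted p = 2.81e-07), Pfas at 0.28 (2.27e-05), Adss at 0.22 (0.0105) and Prat, the first committed enzyme, at -0.20 (0.00827). Adss acts on the branch to AMP and not to GTP. In apterous[56f] against Oregon[R] Paics was again plus at 0.35 (1.24e-06), and both elements of Prat2, at -0.31 (0.000726) and -0.23 (0.00131), and 1 element of Gart, at -0.16 (0.0214), were minus. The other Gart element was not called, at -0.02 (0.799). Antennapedia[73b] against apterous[56f] had 4 called plus and 0 minus, among them Pfas at 0.33 (1.28e-06) and Prat2 at 0.29 and 0.20.

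A list of tetrahydrobiopterin users, with dopa decarboxylase as the step that follows one of them, had 3 of 4 genes tested on 5 elements. In Antennapedia[73b] against Oregon[R] 4 of the 5 were called, all plus: Ddc, dopa decarboxylase, at 0.22, 0.24 and 0.16, and ple, tyrosine hydroxylase, at 0.17 (limma adjusted p = 0.0403). Of these called genes ple uses the cofactor and Ddc does not. The uncalled element was that of Nos, nitric oxide synthase, at 0.0038 (0.979), a gene named here after its values were seen. In apterous[56f] against Oregon[R] ple was at 0.19 (0.0332) and 1 element of Ddc at 0.17 (0.00985). The other Ddc elements were not called there, at 0.09 (0.225) and 0.19 (0.0537). None was called in Antennapedia[73b] against apterous[56f].

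Granule trafficking genes (11 of 23 tested, 12 elements) had 1 called element in each of the comparisons with Antennapedia[73b]. They were Blos1, a subunit of the BLOC-1 complex, at 0.15 (limma adjusted p = 0.0430) and Vps39, a subunit of the HOPS complex, at 0.17 (0.00816). ABCG transporters other than st (10 of 12 genes tested, 16 elements) had 1, 1 and 3 elements called plus and 0, 0 and 1 called minus in the 3 comparisons. Over all elements 22.0%, 15.7% and 15.4% were called, so neither the granule nor the ABCG list stood far above the background. CG4822 in Antennapedia[73b] was plus at 0.15 against Oregon[R] (0.0211) and at 0.22 and 0.17 against apterous[56f] (0.00113 and 0.0358), and Atet was minus at -0.15 (0.0480) in Antennapedia[73b] against apterous[56f]. Uncalled elements of CG4822 were at 0.08 (0.360) and 0.0003 (0.999) against Oregon[R] and at 0.09 (0.321) against apterous[56f].

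**Figure D5:**
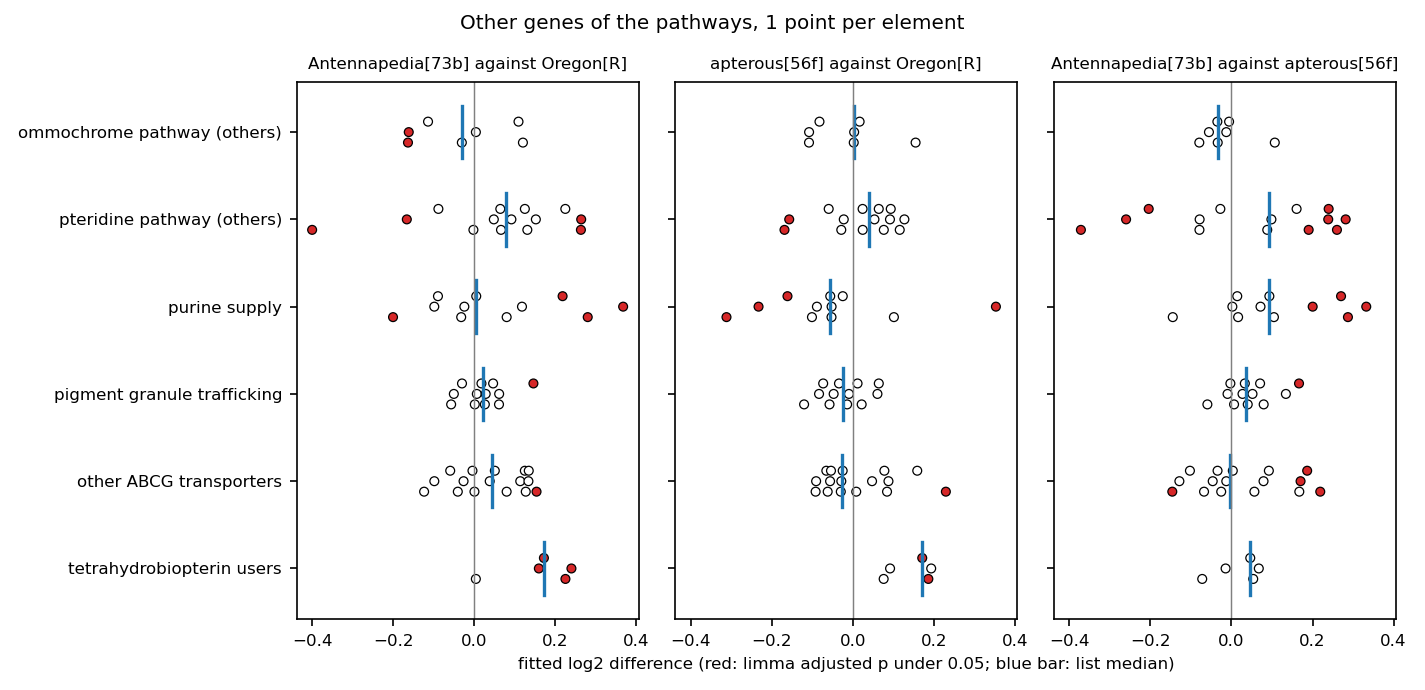
Fitted log2 difference (horizontal axis) of each element (points) of the pathway lists (rows) in the 3 comparisons (panels), with called elements in red, others open and the list median as a blue bar. Called elements lie on both sides in the pteridine list, and 4 of 5 lie on the plus side in the tetrahydrobiopterin list for Antennapedia[73b] against Oregon[R]. Over all elements 22.0%, 15.7% and 15.4% were called in the 3 comparisons.

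Marker genes of several tissues that whole flies hold also differed between strains. Over all elements 22.0%, 15.7% and 15.4% were called in the 3 comparisons. In Antennapedia[73b] against Oregon[R], 7 of 22 photoreceptor elements were called plus and 1 minus (median 0.09), 6 of 6 fat body elements plus (median 0.32), 11 of 11 ovary and egg shell elements minus (median -0.85) and 7 of 11 accessory gland elements minus (median -0.30). Of 4 Malpighian tubule elements 1 was called minus (median -0.06), and of 5 testis elements 2 were minus (median -0.12). In apterous[56f] against Oregon[R] the photoreceptor list had 10 plus and 1 minus (median 0.16), the fat body list 3 of 6 plus (median 0.20), the ovary list 9 of 11 minus (median -0.56) and the accessory gland list 10 of 11 minus (median -0.34). Malpighian tubule elements there had 1 of 4 plus (median 0.12) and testis elements 2 of 5 minus (median -0.08). The photoreceptor list had 1 plus and 6 minus in Antennapedia[73b] against apterous[56f] (median -0.04), where the ovary list had 10 of 11 minus (median -0.32). In that comparison the fat body list had 4 plus and 2 minus (median 0.24) and the accessory gland list 4 plus and 0 minus (median 0.06). Of the tubule elements 2 of 4 were minus (median -0.18), and of the testis elements 1 of 5 was plus (median 0.02). Photoreceptor genes did not all go 1 way: Arr2, an arrestin, was at 0.84 in apterous[56f] against Oregon[R], and trpl, a channel subunit of the light response, at -0.40 in Antennapedia[73b] against Oregon[R]. The part of these tissues in the differences of ry and Dhpr was not tested.

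Likeness was measured as Pearson's r of log2 ratios with the dye part taken out, over the 24 arrays of 2 strains and 10417 elements with 1 gene. For ry the highest were Sk1 (r = 0.90), Cht8 (0.86) and CG31974 (0.85), whose own differences in Antennapedia[73b] against Oregon[R] were 0.29, 0.20 and 0.41. For Dhpr they were CG5397 (0.79), Cyp313a1 (0.79) and CG18249 (0.79), with differences of 0.37, 0.77 and 0.19. The arrays share 3 strains and the array-number pattern given above, and the values are a description.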

How the data were processed

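The authors deposited 1 table that gives, for each spot and array, how many fold the channels differed, with a sign: of 1059750 values 0 lay between -1 and 1, they ran from -11.2 to 9.9 with 1 decimal, and 19.1% were at a fold of 1, so the smallest log2 step next to 0 was 0.14. Per the labels' protocols, 200 ng of mRNA per channel was labelled and the slides were scanned on a GenePix scanner. Steps between scan and fold, and the channel that a positive fold stands for, were not stated (not given in the sources used here). No counts or intensities were used, so the number of arrays and the coarse steps limit the precision.

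The log2 of each fold, with its sign, was centred on the array's median (a fold of 1 on 32 arrays and 1.1 on 4). The 31464 spots form 15732 elements of 2 spots each, which were averaged (duplicate spots correlated with r of 0.190 to 0.834 per array across elements). Elements with at least 2 of 4 arrays in each of the 9 groups were tested, which left out 866. Gene names came from the platform's probe table, updated for 12232 elements through RefSeq symbols of assembly Release 6, and 73 elements listed with several genes were not named. Of the members, cn and Pu lie on chromosome arm 2R, st, se and Dhpr on 3L and ry on 3R, per RefSeq.

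The fit used limma 3.58.1 in R 4.3.3, with strain terms coded 1 in channel 1 and -1 in channel 2. On simulated ratios for Antennapedia[73b] against Oregon[R] over 14866 elements it called 55 of 67 changes of 0.3 log2, 67 of 67 changes of 0.6 and 66 of 66 changes of 1 on the right side, and 11 of 14666 unchanged elements. The simulated noise was normal and independent between arrays, without coarse fold steps, an array-number pattern or shared RNA. Its smallest change, 0.3, was above the differences of ry (0.23) and Dhpr (0.18). The simulation thus gives no error rate or power for those calls. All members are named whatever their p. Of each pathway list at most 4 called elements with the smallest adjusted p in a comparison are named, and of each marker list at most 2. A gene named for 1 comparison is also given in others. Uncalled elements given beside them, and the called elements of Sptr and the further GstO2 element, were added after the values were seen. The 3 most alike genes are named for each called member. The members and lists were chosen with earlier results of these data known. Alternatives changed the centring, dye term, spots, arrays, filter, limma options and the place of the arrays. Array numbers differ between all groups, so no pairing of samples was made. Sequences were not used here.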

Additional observations from a re-analysis of the deposited data

Results flagged for a closer look

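In each of 63 sets of 4 arrays (7 elements in 9 groups) the gap of the highest or lowest array was compared with Dixon's critical value, which chance exceeds in about 5% of sets. In 5 sets an array stood apart, always as the lowest of its group. Array 62 (Antennapedia[73b] against Oregon[R]) had st at -0.19, and the other 3 arrays lay between 0.22 and 0.26. Array 65 of the same group had se at -0.42, and the others lay between 0.00 and 0.07. Array 64 of the same group had Dhpr at -0.16, and the others lay between 0.32 and 0.41. Array 38 (Oregon[R] against itself) had ry at -0.33, and the others lay between 0.06 and 0.14. Array 55 (Oregon[R] against apterous[56f]) had Pu element 2 at -0.22, and the others lay between 0.06 and 0.07.

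Without each of these arrays in turn, 1 of the 21 member differences changed its side of the threshold: Pu element 1 in Antennapedia[73b] against apterous[56f] passed it without array 65, at 0.18 (limma adjusted p = 0.0406). For Antennapedia[73b] against Oregon[R], st without array 62 was 0.11 (limma adjusted p = 0.387), ry without array 38 was 0.23 (0.000434) and Dhpr without array 64 was 0.22 (0.000421). Array 38 is self-hybridised and carries no strain difference, so leaving it out could not move the difference of ry and changed only its SE. The sign of se turned without array 65, at 0.03 (0.773).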

How the results depend on the processing

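Of 21 member differences under 55 alternatives (36 of them without 1 array each), 1080 values kept direction and side of the threshold, 58 uncalled values changed sign, 12 passed the threshold newly, 5 called ones missed it and 0 called ones reversed. Leaving out 1 of the 12 self-hybridised arrays, or adding a place block, could not move a member's difference and changed only its SE. Settings that ended or gave a call for ry, Dhpr and Pu element 1 stand beside those results. Member elements called in Antennapedia[73b] against Oregon[R] were 1 in place of 2 on the direct arrays only, the higher-numbered 2 arrays, odd arrays, even arrays and the first spot only. In Antennapedia[73b] against apterous[56f] they were 2 in place of 0 with place as a block of 2 levels, and with 4 levels, a block added after the se values were seen. Under these blocks the differences of ry and Pu element 1 were unchanged, with a smaller SE. Otherwise the cause was not tested, beyond the fewer arrays or spots.

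Elements called in Antennapedia[73b] against Oregon[R], 3277, numbered 1972 on direct arrays, 1589 on higher-numbered, 1732 on odd and 1790 on even arrays. In apterous[56f] against Oregon[R], 2335, they numbered 1382 without the dye term, 715 on direct, 1450 on lower-numbered, 866 on higher-numbered, 1310 on odd and 825 on even arrays, 1300 at the first spot and 1406 at the second. In Antennapedia[73b] against apterous[56f], 2288, they numbered 1486 without the dye term, 1091 on direct, 933 on higher-numbered, 1215 on odd and 1052 on even arrays, and 1259 at the first spot. Without 1 array the ranges were 2992 to 3366, 1970 to 2362 and 2048 to 2328, with 2 to 2, 0 to 0 and 0 to 2 members. Left out in turn, no array removed the calls of ry (0.21 to 0.25) or Dhpr (0.16 to 0.22). The self-hybridised arrays among them could not have moved either difference.

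Calls on the plus side were 54.0% in Antennapedia[73b] against Oregon[R], 44.2% in apterous[56f] against Oregon[R] and 66.3% in Antennapedia[73b] against apterous[56f]. With trimmed-mean centring they were 48.3%, 53.7% and 50.5%, and with quantile scaling 53.5% in the second and 50.7% in the third. No paired analysis was possible because the groups share no array number.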

Other observations

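Arrays on which a strain met itself carry no strain difference. On these, se averaged 0.00 ± 0.06 on the Antennapedia[73b] arrays, -0.05 ± 0.14 on the apterous[56f] arrays and -0.27 ± 0.11 on the Oregon[R] arrays (SD, n = 4 each), and no test was made of this. The spread of Pu element 2 over the 12 self-hybridised arrays was 0.27 (SD), at the 93.1 percentile of all elements, against 0.15 for ry and a median of 0.17 over all elements. Its lowest value, -0.81, was on array 48, apterous[56f] against itself.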
